A study of Mus musculus with 2 samples.

Results

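The regions described here are H3K36me3 peaks that lie at the annotated starts of protein-coding genes, where this mark is usually low, in macrophages of the mouse. They were chosen by their measured position and length: a peak of the authors' replicated list, shorter than 6 kb, with its midpoint inside a protein-coding gene body and within 2 kb on either side of the annotated start of a protein-coding gene. There were 405 such peaks among 56117 in the replicated list, and among 53200 of that list that were under 6 kb and had their midpoint in a coding gene body. They lay nearest to the starts of 346 of 21938 coding genes (GENCODE release M21, assembly mm10). The question asked of each was whether an overlapping gene, a neighbour on either strand or an internal transcript start of the same gene was annotated there.

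The cells were macrophages grown from the bone marrow of C57BL/6J mice without any stimulus, a primary cell type differentiated in culture. Chromatin was immunoprecipitated with an antibody to H3K36me3, and libraries were made from 10 ng of DNA with a size range of 350 to 480 bp. The series holds 1 group of 2 biological replicates, whose records name the same donor, so differences between them may be technical. Sex and age of the animals are not given, the control experiment that the labels name was not analysed here, and with 1 group no comparison of conditions and no test was possible.

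Trimethylation of lysine 36 of histone H3 is written by Setd2, a methyltransferase carried by elongating RNA polymerase II. The mark therefore builds up along the body of a transcribed gene, rises toward its 3′ end and is low at the promoter, where H3K4me3 lies instead. Because it marks the passage of polymerase and not a strand, a start that lies inside or just behind another transcribed gene can sit in that gene's mark. Many promoters of mammals lie in CpG islands, stretches in which the CpG dinucleotide, elsewhere depleted by methylation and deamination, has been kept.

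The files hold called peaks and no reads. Depth is therefore unknown, and a start without a peak was undetected, not shown to lack the mark. Replicate 1 held 32098 peaks over 28.5 Mb, and replicate 2 held 58505 over 79.4 Mb. Enrichment is the authors' value for each peak, a ratio over the background their caller used, and it serves here only to describe peaks. Of 12 macrophage marker genes, 9 held a peak in replicate 1 and 11 in replicate 2, with a median of 25.0% and 53.2% of the gene body under peaks. Lists of 6 T cell, 6 B cell, 6 neutrophil and 6 fibroblast markers held none in either replicate.

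A set of 5 starts that lie inside another coding gene illustrates a contrast in the CpG content of the start that is described further on. The split by CpG was added after seeing the data, and the starts were picked to show it. Each line gives the 200 bases just upstream of the annotated start, 5′ to 3′ on the strand of the gene, from the GRCm38.p6 (mm10) reference, with every CpG in capitals. Gcnt7, a glycosyltransferase gene, and Grin2d, which encodes a subunit of the neuronal NMDA receptor, had CpG-poor starts under a replicated peak, each matched in replicate 2 and not in replicate 1. Plec, for the cytoskeletal linker plectin, and Btbd6 had CpG-rich starts without a peak, although the gene around them carried peaks. Mcts2, an imprinted retrogene inside H13, was the exception, a CpG-rich start under a peak. Apart from Mcts2, they were picked as the starts past the midpoint of an enclosing gene that was most covered by peaks, where neither gene had a Gm, Rik or clone name and the window held no annotated UTR.

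Gcnt7: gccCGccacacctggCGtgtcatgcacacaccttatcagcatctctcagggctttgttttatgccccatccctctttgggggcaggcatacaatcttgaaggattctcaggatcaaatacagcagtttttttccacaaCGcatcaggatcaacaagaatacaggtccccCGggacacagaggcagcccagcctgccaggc
Grin2d: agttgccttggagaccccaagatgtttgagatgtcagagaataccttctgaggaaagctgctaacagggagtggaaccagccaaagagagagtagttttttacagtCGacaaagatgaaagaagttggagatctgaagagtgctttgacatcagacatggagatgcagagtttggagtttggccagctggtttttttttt
Plec: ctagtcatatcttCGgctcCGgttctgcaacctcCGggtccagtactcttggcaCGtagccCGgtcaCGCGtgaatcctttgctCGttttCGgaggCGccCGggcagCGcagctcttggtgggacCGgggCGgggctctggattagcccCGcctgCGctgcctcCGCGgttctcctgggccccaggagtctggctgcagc
Btbd6: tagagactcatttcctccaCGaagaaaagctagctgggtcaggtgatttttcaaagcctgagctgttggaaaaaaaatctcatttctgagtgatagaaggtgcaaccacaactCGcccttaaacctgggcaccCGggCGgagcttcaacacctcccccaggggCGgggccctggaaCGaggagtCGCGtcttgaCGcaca
Mcts2: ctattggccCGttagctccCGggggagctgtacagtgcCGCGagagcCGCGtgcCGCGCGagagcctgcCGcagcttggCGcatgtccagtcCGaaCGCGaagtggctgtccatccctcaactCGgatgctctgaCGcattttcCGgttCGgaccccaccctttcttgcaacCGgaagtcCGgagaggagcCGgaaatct

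The windows lie on chr2:172458597-172458796 (minus strand, Gcnt7), chr7:45878379-45878578 (minus, Grin2d), chr15:76232575-76232774 (minus, Plec), chr12:112976282-112976481 (plus, Btbd6) and chr2:152686835-152687034 (plus, Mcts2), and none touches an annotated UTR. They hold 4, 1, 18, 9 and 21 CpG, against a median of 7 in the same window of all 21938 coding starts. The ratio of observed to expected CpG within 500 bp of the start was 0.32 at Gcnt7 and 0.09 at Grin2d, and 0.64, 0.82 and 0.97 at Plec, Btbd6 and Mcts2. Rtf2 lies across the start of Gcnt7 on the other strand and was 81.5% under replicated peaks outside 2 kb of that start. Kdelr1, the receptor that returns proteins to the endoplasmic reticulum, lies likewise across Grin2d and was 77.3% covered. The enclosing genes of the CpG-rich starts were 53.9% covered for Parp10 around Plec, 47.5% for Brf1, a subunit of an RNA polymerase III factor, around Btbd6, and 41.8% for H13, which encodes a signal peptide peptidase, around Mcts2.

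**Figure D1:**
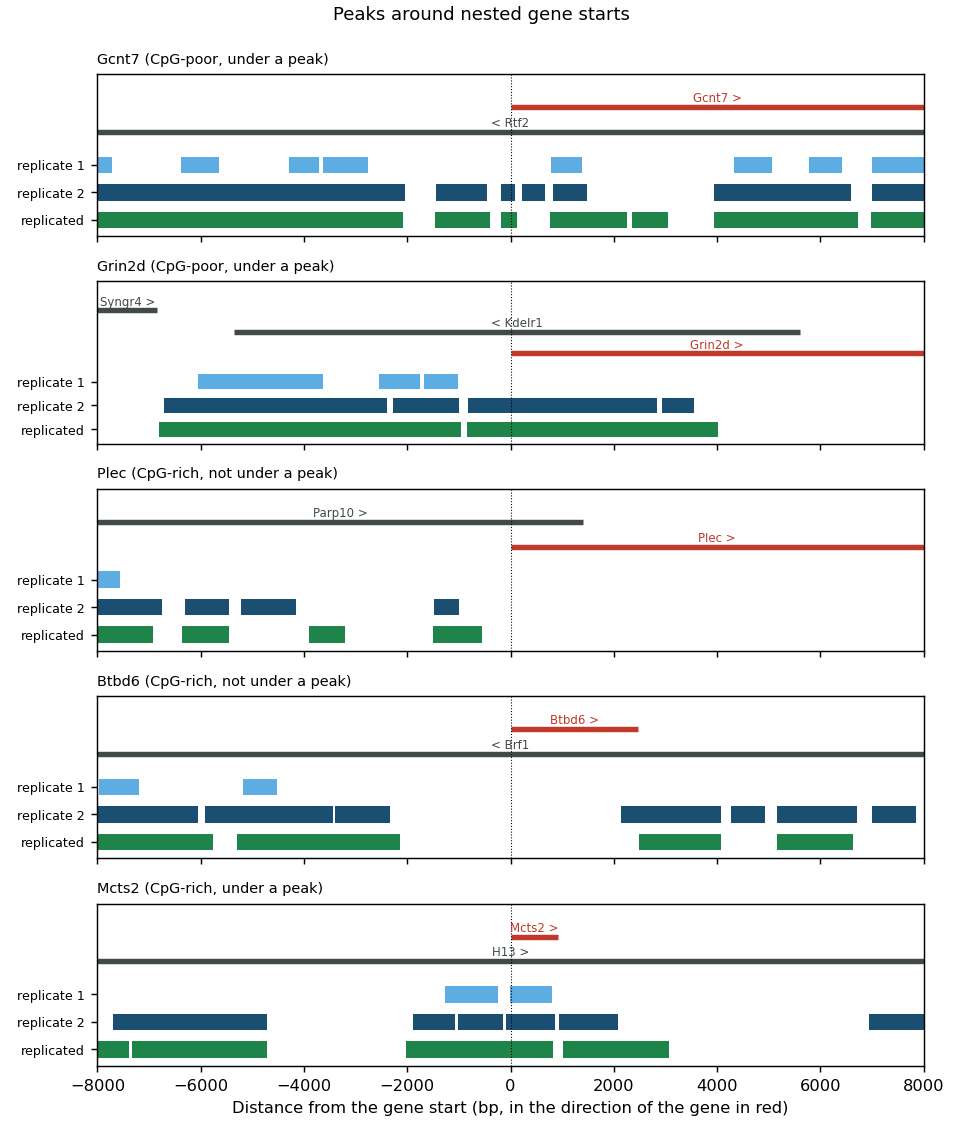
Peaks within 8000 bp of the 5 gene starts whose sequences are given, in the lists of replicate 1, replicate 2 and replicated peaks (coloured bars), with coding genes as lines pointing as they are transcribed and the gene of the start in red; the horizontal axis is the distance from the start in bp. Replicated peaks run over the starts of Gcnt7 and Grin2d, where replicate 2 but not replicate 1 has one, and of Mcts2, where both do, whereas the replicated peaks in Parp10 and Brf1 stop 550 bp before the start of Plec and 2142 bp before that of Btbd6.

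Most of the 405 peaks lay in a coding gene other than that of the nearest start. In 291 of them (71.9%, exact 95% interval of the share 67.2 to 76.2%) the midpoint was inside another coding gene whose own start was more than 2 kb away. That gene was on the strand of the start gene for 217 and on the opposite strand for 74. The rule itself shapes this share. A midpoint upstream of the nearest start has to lie in another coding gene, and 202 of the 291 were upstream. Of the 197 midpoints at or past the start, 89 were among the 291. For 95 of the 291 the midpoint was in at least 2 coding genes. The interval covers counting error over peaks only. The 405 peaks lay at the starts of 346 genes, so some share a start and its surroundings. For another 49 (12.1%) a neighbouring coding gene overlapped the peak or ended within 5 kb behind it. Only a non-coding record lay over the midpoint of 3 peaks, those at Nav1 and Prr18 among them. The last 62 (15.3%) had no other annotated gene near, and in 37 of these (9.14% of all) a transcript of the same gene began between the gene start and the far edge of the peak, leaving 25 (6.17%) with none of these annotations.

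These shares can be read against the space available. Of all bases in coding gene bodies within 2 kb of a start, 14.2% (6.53 Mb) lay in another coding gene, and 7.24% of them were under replicated peaks, with 2.04% under replicate 1 peaks and 7.24% under replicate 2 peaks. Where the start's own gene was the only one, 39.3 Mb in all, 0.547% of bases were under replicated peaks, with 0.0898% and 0.625% in the replicates. The remaining coding gene bodies, 994.5 Mb, were 8.32% covered, with 2.79% and 7.66%. Bases near a start thus carried coverage near that of ordinary gene body when they lay in another coding gene, and far less when they did not. This held in both replicates. The 2 kinds of bases also differ in their place in a gene. Those in the start's own gene only all lie within 2 kb of its start, and the part of this was not tested. The midpoint lay in at least 2 coding genes for 97 members (24.0%), where 3.89% of all 53200 body peaks did, a count that the nearness of a start and its gene raises by itself.

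**Figure D2:**
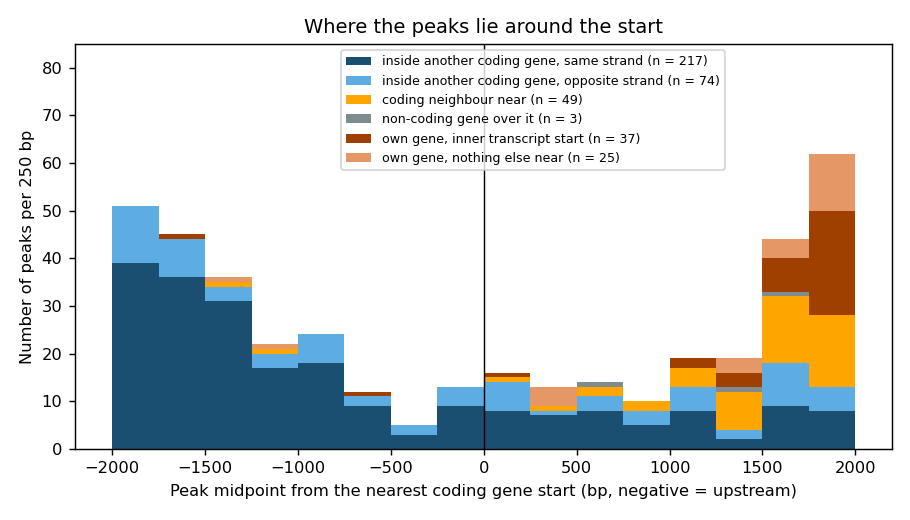
Number of the 405 peaks per 250 bp of distance between the peak midpoint and the nearest coding gene start (horizontal axis, bp, negative values upstream), stacked by the annotation around the peak. Since the rule asks for a midpoint inside a coding gene, a midpoint upstream of the start has to lie in another gene. Of the peaks with only their own gene around them, 48 of 62 lie more than 1500 bp downstream of its start.

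Peaks inside a gene of the same strand mostly sat toward that gene's 3′ end, a position that the rule itself favours. In 115 of 217 the start itself also lay inside the other gene. For the rest the start lay past that gene's end, so the window places the midpoint within 2 kb of the end. A midpoint had also to be more than 2 kb from the other gene's own start. Of these 217 midpoints, 162 were upstream of the start, and 150 were in the last 25% of the other gene, with a median position 87.2% along it. The other gene carried replicated peaks elsewhere, more than 2 kb from the midpoint, for 178 of the 217. Its median coverage there was 35.6% by replicated peaks, with 9.95% in replicate 1 and 32.5% in replicate 2. The start gene was covered less over the part that overlaps no other gene: of 142 start genes with at least 500 bp of their own, 75 held a peak there and the median was 0.633% of bases by replicated peaks. These medians are not an even comparison. The other gene entered the set because it held the midpoint of a peak, and the start gene because of where it began. The first median is also taken over peaks and leaves out 2 kb around the midpoint, whereas the second is taken over genes.

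The peak of highest enrichment of all, 5.53, lay 675 bp upstream of Psme2b, a gene related to a subunit of the proteasome activator. It runs from 48946637 to 48947094 on chromosome 11, wholly in exons, where Gm12185 and 9930111J21Rik1 overlap, and its strongest overlapping peak had 3.66 in replicate 1 and 6.95 in replicate 2. A second member lay on the other side of the same start (chr11:48945258-48946175), with 3.71, a replicate 2 peak of 5.38 and none in replicate 1. More than 2 kb from the first midpoint, Gm12185 was at 0% in replicate 1 and 1.92% in replicate 2. At H2afx, the gene of the DNA damage histone H2A.X, the peak was at chr9:44332496-44333611 (enrichment 4.79, with 2.85 and 7.12 in the replicates). It lay 1641 bp upstream and 89.2% along Dpagt1, which opens the synthesis of N-glycan precursors. More than 2 kb from that midpoint, Dpagt1 was at 0% in both replicates. At Acrbp, which encodes a sperm protein that binds acrosin, the peak (chr6:125047075-125049794, 4.87, with 4.47 and 5.73) covered the start and lay 91.3% along Ing4, a reader of H3K4me3. Ing4 was covered elsewhere at 24.4% in replicate 1 and 43.8% in replicate 2. The own part of Acrbp was covered too, at 11.1% and 27.9%.

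The peak near B4galt2, a galactosyltransferase gene, lay 1816 bp upstream in Atp6v0b, a subunit of the proton pump of lysosomes, with an enrichment of 5.23 (3.39 and 7.64 in the replicates) at chr4:117884230-117886377. The own parts of B4galt2 and of H2afx had no replicated peak. Atp6v0b, at 3008 bp, is too short to show coverage more than 2 kb from the midpoint. Cend1, a gene of neuronal differentiation, had its peak 1478 bp upstream in Slc25a22, a mitochondrial glutamate carrier, at chr7:141430212-141431727, with 4.46 (3.93 and 5.73). Slc25a22 was covered elsewhere at 22.1% in both replicates, and the own part of Cend1 at 0%. In every one of these examples the value was higher in replicate 2, whose peaks have a higher median enrichment throughout (3.83 against 3.22).

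Starts that lie in a gene of the opposite strand had a different geometry. Of these 74 members, 40 belonged to a start gene lying wholly inside the other gene (54.1%, against 33 of 217, or 15.2%, on the same strand). Their midpoints lay at a median 60.9% along the other gene, with 30 of 74 in its last 25%. The start was inside the other gene for 69 of 74, against 115 of 217 on the same strand. The rule thus tied fewer of these midpoints to the end of the other gene. The other gene carried peaks elsewhere for 66 of 74, at a median of 3.99% in replicate 1 and 25.3% in replicate 2. The longest member, 5931 bp, covered the start of 4930556J24Rik inside Pes1, a gene of ribosome assembly, with an enrichment of 4.54 (4.47 and 5.90 in the replicates). Pes1 was covered elsewhere at 37.7% and 63.1%, and the part of 4930556J24Rik outside it at 0%.

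Pde6h, a subunit of the phosphodiesterase of cone photoreceptors, had a peak over its start (chr6:136922819-136924754, 4.21, with 3.46 and 4.51) at the very end of Arhgdib, a gene of blood cells, which was covered elsewhere at 15.6% and 51.0%. The own part of Pde6h had no replicated peak. Over the start of Fndc9 the peak (chr11:46234650-46236488, 3.22, with 2.71 and 3.99) lay 64.9% along Cyfip2, of the actin-regulating WAVE complex, covered elsewhere at 12.6% and 40.7%. The start base of Fndc9 itself was under a peak in replicate 2 and not in replicate 1. The peak over the start of Grin2d (chr7:45874353-45879220, 3.71) matched a replicate 2 peak of 4.52 and no replicate 1 peak. At Ankrd61, inside the gene of the haem-regulated kinase Eif2ak1, the peak covered the start with 3.88 (3.12 and 4.86). Near Bcl2l12 the peak lay in Irf3, a transcription factor of the interferon response, with 3.96 and only a replicate 2 peak under it (4.69). The own part of Bcl2l12 was covered at 0% in replicate 1 and 32.3% in replicate 2.

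At Mcts2 the peak (chr2:152685011-152687861, enrichment 3.63) covered the start and was found in both replicates, at 3.39 and 4.34. Retrogenes such as this one, copied into an intron of a host gene, are imprinted at a few mouse loci, where the nested gene is expressed from the paternal allele. The peak lists do not separate the alleles.

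Where no coding gene that began over 2 kb away held the midpoint, a neighbour often ended nearby. For the 49 members with a near coding neighbour, its end lay a median of 1937 bp from the midpoint, and it was on the same strand in 22 and on the opposite strand in 27. The neighbour itself carried replicated peaks in 38 and was at least 20% covered in 32. With no other gene over the midpoint, the rule itself places most of these midpoints downstream of the start. Of the 49, 27 lay in genes shorter than 4 kb, in which 2 kb past the start is already late in the gene. Gdpd3, a phosphodiesterase gene behind Mapk3 (the kinase ERK1), had the highest enrichment, 4.21, with 2.71 and 4.51 in the replicates, at chr7:126766473-126769040. Dcxr, a xylulose reductase gene, had its peak 84.0% along its own short body (chr11:120725237-120726161, 3.80, with 3.39 and 3.99), and Psmb6, a catalytic subunit of the proteasome, 80.1% along (chr11:70526404-70528322, 3.55, with 3.39 and 4.51). The neighbour of Psmb6, Gm40193, had no peak, whereas Psmb6 was 44.9% and 55.4% covered in the replicates.

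BC030499 and Ubap1l were the members of this set with midpoints nearest to a start, at 27 and 289 bp, and both peaks covered it. The first (chr11:78290450-78291287, 3.30) overlapped a peak of 3.25 in replicate 1 and none in replicate 2, and lay 245 bp from the end of 2610507B11Rik, which was 79.1% covered by replicated peaks. The second (chr9:65360600-65362060, 3.30) matched 2.75 in replicate 1 and none in replicate 2. Both rest on the list of 1 replicate, and the own genes were covered at 12.6% and 5.28% by replicated peaks.

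The 62 peaks with only their own gene around them mostly lay at the outer edge of the window, inside covered genes. Their midpoints were a median of 1800 bp past the gene start, 48 of 62 were beyond 1500 bp, and 5 were within 500 bp. The own gene was at least 20% covered in 52, at a median of 56.5%, and a further peak followed downstream in 52. Most of these members thus lay in a covered gene with a further peak downstream. Whether each was the first peak of its gene was not examined. Among the 37 with an internal transcript start, that start was a median of 636 bp past the gene start and lay in the peak or within 500 bp of its midpoint in 8. RefSeq, as a second annotation, placed a transcript start of the same gene more than 2 kb upstream for 12 of the 62 and another gene over 2, both at Gm340, which RefSeq places within Lcor.

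Among members with an internal start, Usb1, which trims U6 RNA of the spliceosome, had the highest enrichment, 4.21 (2.75 in replicate 1 and 5.21 in replicate 2), at chr8:95333327-95334875. Its midpoint was 1817 bp past the gene start and 57.5% and 78.8% of the gene were covered. Srsf5, a splicing factor gene, followed with 4.13 at chr12:80946606-80947757 and a midpoint 1677 bp in, matched by a replicate 2 peak of 5.21 and by none in replicate 1. Ltbr, the receptor for lymphotoxin beta, had 3.62 at 1957 bp without a peak under it in either replicate's own list, though 33.3% and 46.2% of the gene was covered in them. In the pentose phosphate enzyme gene Pgd the peak was 1892 bp in, with 3.55 and only a replicate 2 peak (4.17). Of the 6 genes of highest enrichment here, Srsf5, Ltbr, Pgd and the helicase gene Ddx51 lacked a replicate 1 peak at the site, and Usb1 and Rtraf had one.

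The peaks of these 62 that covered a start numbered 4. Ghrl, the gene of the hormone ghrelin, had a peak with its midpoint 202 bp in (chr6:113718455-113720902, 3.14, with 3.38 and 4.34) and an internal start at 422 bp. Gm340 had one at 302 bp (chr19:41581675-41583669, 3.38, with 3.12 and 4.86). Both overlapped a peak in each replicate, but no replicate 1 peak lay over the start of Ghrl itself. The peaks at Ppp2r3d (chr9:124475835-124476963, 499 bp, 3.47) and Ms4a14 (chr19:11313371-11314952, 293 bp, 3.05) overlapped a peak in replicate 2 only, of 4.51 and 4.34. A replicate 2 peak lay over the start itself at Ms4a14 but not at Ppp2r3d. Ms4a14, of a family of membrane proteins of blood cells, was 34.6% covered in replicate 1 and 83.6% in replicate 2, whereas Ppp2r3d was at 0% and 7.50%.

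Without an internal start, Noc2l, a nucleolar gene, led with 3.71 (3.80 and 4.17 in the replicates) at chr4:156237307-156238219, 1753 bp in, in a gene 34.6% and 81.5% covered. Rps3a1, a ribosomal protein gene, had 3.30 at 1739 bp and Zcchc9 3.38 at 1986 bp, both with a replicate 2 peak (3.82 and 4.17) and none in replicate 1. In the single-exon or short genes Tmem185b, Mfsd5, AI837181 and AI467606 the peaks were 100%, 100%, 82.6% and 100% exonic and sat between 1404 and 1832 bp past the start, 49.7 to 84.4% along the gene. Short genes bring their 3′ parts within 2 kb of the start.

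How firmly the replicates held these peaks differed with the surroundings. Of the 405, 132 (32.6%) overlapped at least 1 base of a peak in replicate 1 and 307 (75.8%) did so in replicate 2, where 39.2% and 71.6% of the other 52795 body peaks did. The share overlapping replicate 1 was 38.5% for peaks inside another coding gene, 20.4% for those with a near neighbour and 16.1% for those with their own gene only. For replicate 2 the shares were 80.4%, 57.1% and 69.4%. Median lengths were 1103, 698 and 715 bp in the same order, and a longer peak is touched more easily, so length moves with this order and its part was not tested. In 88 members (21.7%, against 24.0% of other body peaks) neither replicate's own list had a peak.

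Enrichment itself set the members little apart. Its median was 3.09 over the 405 and 3.13 over other body peaks, 3.17 inside another coding gene, 2.89 with a near neighbour and 3.05 with the own gene only. Within the members it ran from 1.60 to 5.53. The bases under members were 48.7% exonic at the median, against 8.54% for other body peaks, with a GC content of 49.2% against 44.1%. Starts and ends of genes are richer in exon and in GC than the introns that fill most gene bodies, and the rule selected for them.

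Being near a start and lying over it were different things. Of the 405 peaks 80 covered the base of the nearest start, 47 had their midpoint within 500 bp of it and 202 beyond 1500 bp. Over all 21938 coding starts, 99 (0.451%) were under a replicated peak of any length. Of the 80 starts under members, 66 (82.5%) lay inside another coding gene whose start was over 2 kb away, as 6.3% of all coding starts do. Starts inside another coding gene were under a replicated peak in 71 of 1381 cases (5.14%), with 2.10% in replicate 1 and 5.43% in replicate 2, and other starts in 28 of 20557 (0.136%), with 0.0486% and 0.136%. The order was the same in each replicate.

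Starts under a member were poor in CpG. The 80 starts under members had a median observed over expected CpG of 0.258, and 1 of them was CpG-rich (a ratio of at least 0.6 and at least 50% GC within 500 bp of the start). The 288 starts within 2 kb of a member but not under it had a median of 0.570, with 130 CpG-rich (45.1%), close to all coding starts at 0.552 and 44.4%. Base composition was not part of the rule, but the 2 sets also differ in their surroundings. Of the 80, 82.5% lay inside another coding gene, against 22.9% of the 288. All 1381 starts inside another coding gene had a median of 0.352 with 27.6% CpG-rich. Starts outside had 0.567 and 45.5%. Part of the difference thus goes with lying inside another gene.

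A contrast by CpG was present both outside other genes and inside covered ones, at very different levels. Outside any other coding gene, 1 of 9359 CpG-rich starts (0.0107%) and 27 of 11198 CpG-poor starts (0.241%) were under a replicated peak. Among coding starts inside another coding gene that was at least 20% under replicated peaks (outside 2 kb of the start), 101 were CpG-rich, in 82 enclosing genes, and 1 of them, Mcts2, was under a replicated peak (0.99%, exact 95% interval 0.0251 to 5.39%). Of 175 CpG-poor starts, in 161 enclosing genes, 47 were (26.9%, 20.4 to 34.1%). In replicate 1 the counts were 1 and 23 (0.99% and 13.1%), and in replicate 2 1 and 51 (0.99% and 29.1%). The intervals cover counting error over starts only, and starts in 1 gene share its coverage.

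Surroundings differed somewhat between both kinds of start. The enclosing genes were 31.7% covered at the median for CpG-rich starts and 41.0% for CpG-poor ones, lower for the former. Among CpG-poor starts the share under a peak was 36.4% (32 of 88) on the strand of the enclosing gene and 17.2% (15 of 87) on the other, and 22.6% (14 of 62) before the middle of the gene and 29.2% (33 of 113) after it. Among CpG-rich starts 0 of 54 past the middle and 1 of 47 before it were covered, and 1 of 56 on the same strand and 0 of 45 on the other. In each of these splits the CpG-rich share was below the CpG-poor one. The median GC content within 500 bp was 59.6% at CpG-rich and 50.9% at CpG-poor starts, and its part in the detection of peaks was not tested.

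Provisional gene records entered both counts. An enclosing gene with a Gm number, a Rik or a clone name, some of which join neighbouring genes into 1 long record, held 41 of the 101 CpG-rich and 34 of the 175 CpG-poor starts, and of these 0 and 1 were under a peak. Inside genes with other names the counts were 1 of 60 (1.67%) and 46 of 141 (32.6%), with 1.67% and 16.3% in replicate 1 and 1.67% and 35.5% in replicate 2. Among CpG-poor starts, those whose own gene had a Gm, Rik or clone name were under a peak in 26 of 53 cases (49.1%) and the others in 21 of 122 (17.2%). With such names left out on both sides, 1 of 53 CpG-rich and 20 of 90 CpG-poor starts (22.2%) were covered, so the contrast was present among well named genes as well. Whether the nested genes were transcribed in these cells was not measured here.

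**Figure D3:**
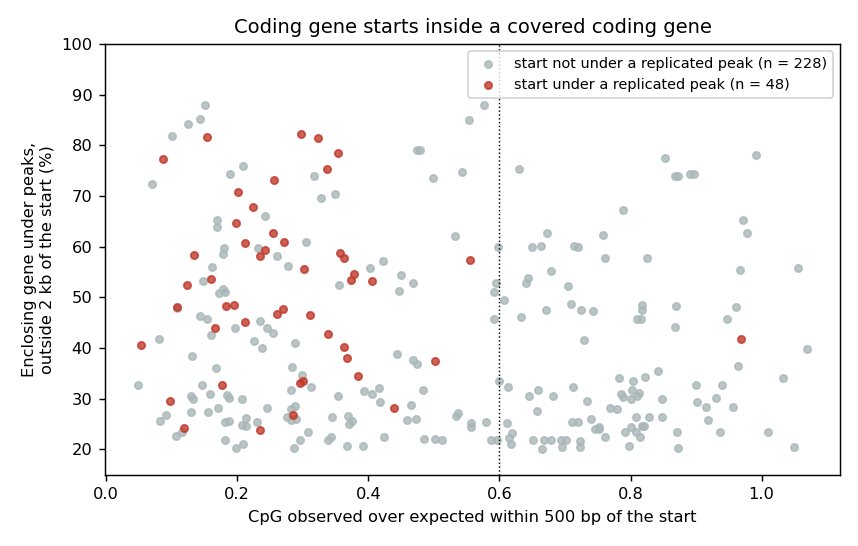
Coding gene starts inside another coding gene at least 20% covered, each a point, by the observed over expected CpG ratio within 500 bp of the start (horizontal axis) and the percent of the enclosing gene under replicated peaks outside 2 kb of the start (vertical axis), with starts under a replicated peak in red and a dotted line at 0.6. Of the 48 red points 1, Mcts2, lies to the right of the line.

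Around the start the coverage of CpG-rich sites dipped over a few kilobases. In replicate 2, 34.7% of the 101 CpG-rich starts had a peak 5 kb upstream, 4.95% had one 2 kb upstream, 0.99% at the start, 7.92% 2 kb downstream and 23.8% 5 kb downstream. Replicate 1 gave 14.9%, 1.98%, 0.99%, 0.99% and 7.92% at the same points. The 175 CpG-poor starts gave 34.9%, 37.1%, 29.1%, 22.3% and 23.4% in replicate 2, with no such gap. In replicate 1 they gave 18.3%, 16.6%, 13.1%, 8.57% and 6.86%, though with 4.57% at 1 kb upstream. Levels beyond 2 kb were raised by the requirement that the enclosing gene be covered there, so the contrast between both kinds of start is to be read at and near the start. Starts outside any other coding gene were lowest of all there, at 0.0486% in replicate 1 and 0.136% in replicate 2.

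**Figure D4:**
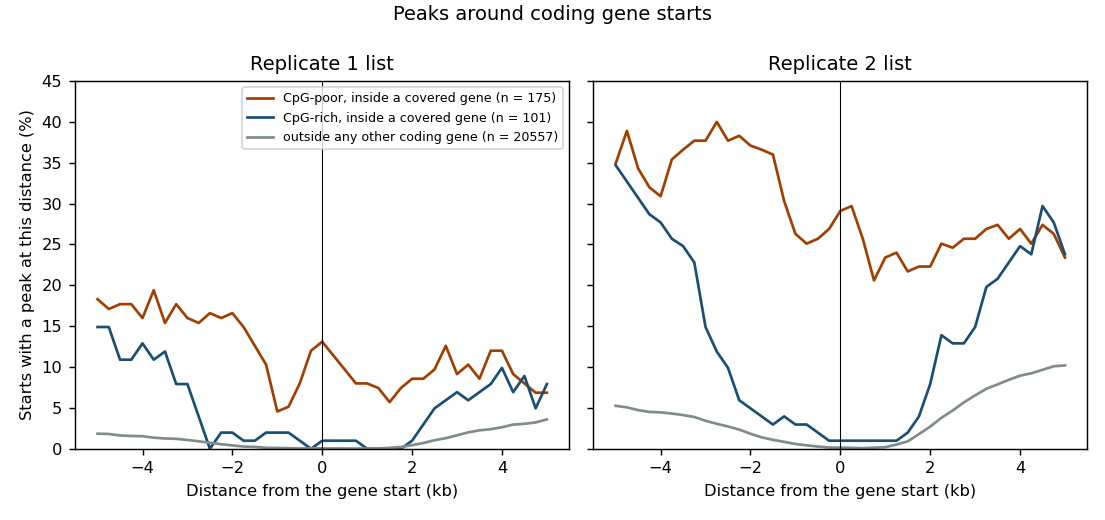
Percent of starts with a peak at each distance from the gene start (horizontal axis, kb, negative values upstream) in the list of replicate 1 (left) and replicate 2 (right), for CpG-poor and CpG-rich starts inside a gene at least 20% covered and for starts outside any other coding gene. The CpG-rich line falls to 0.99% at the start in both replicates, while the CpG-poor line stays at 13.1% and 29.1%.

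A few of these sites lay at genes known in macrophages. Of 31 interferon-stimulated genes, 3 (9.68%) had a member nearest to their start, as had 1 of 12 macrophage markers (8.33%). Among all coding genes, 346 of 21938 (1.58%) had one. The listed counts are small and the difference was not tested. Rsad2, the antiviral enzyme viperin, held one 1432 bp into the gene (chr12:26454684-26455357, 3.05, with 4.17 in replicate 2 and none in replicate 1), and Oas2, a sensor of double-stranded RNA, one at 1655 bp (2.56) behind Oas3. The macrophage marker Cd68 had a peak 1760 bp upstream in Eif4a1, a translation factor gene, with 2.97 and none in either replicate's own list. Among names of the ribosomal protein pattern, 9 of 101 had a member, though 1 of these, Rps6ka4, is a kinase. Zfp-named genes had 3 of 397, histone genes 1 of 67 and olfactory receptors 0 of 1134, while genes named only by a Gm number or as Rik clones had 63 of 2091 (3.01%).

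The limits of the rule fell in a continuum of peaks. The member farthest from a start, at Psmb6, had its midpoint 1996 bp away, and the nearest peak outside, at Tlr9, a receptor for bacterial DNA, was at 2001 bp with an enrichment of 4.13. Length left out 1 peak, at Trim47, with 6783 bp and an enrichment of 4.70, against 5931 bp for the longest member.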

How the data were processed

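H3K36me3 ChIP-seq peaks of 2 replicates were used as deposited. The authors' lists hold, per the labels and the values, a display score, an enrichment given as a ratio over background, and a −log10 p and −log10 q for each peak. The deposited lists are 1 for each replicate, 1 pooled and 1 replicated, on mm10. For the aligner and the caller the names are not given in these sources. The number of peaks moves with depth, which the files do not give.

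Genes, starts and transcripts came from GENCODE release M21, a second annotation from RefSeq and sequence from GRCm38.p6. Each peak was placed by its midpoint, and the first annotation that applied was taken in the order other coding gene, coding neighbour (overlapping, or ending within 5 kb behind), non-coding record, inner transcript start (over 100 bp past the gene start), none. Gene coverage is the percent of bases under peaks. The enrichment given for a replicate is that of its strongest overlapping peak. Intervals are exact Clopper-Pearson 95% intervals. Named members are the 6 of highest enrichment and the 3 nearest to a start for each kind of surrounding, starts of listed genes and the edges of the rule, and some of these are not reported here. Others were chosen after their values were seen (Grin2d, Mcts2, Plec and Btbd6). Members and lists were chosen with earlier results of these data known, and the split by CpG content was added after seeing the data. Steps were tested on simulated intervals. Software was matplotlib 3.10.9, scipy 1.17.1, pandas 2.3.3 and numpy 2.4.6 under Python 3.11.15.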

Additional observations from a re-analysis of the deposited data

How the results depend on the processing

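The number of peaks at starts (405) rested on the list and window: the replicates' own lists gave 193 to 511, an enrichment of at least 3 gave 230, windows of 1 kb and 0.5 kb gave 107 and 47, peaks over the start base numbered 83, and starts of all basic transcripts gave 1056. The share inside another coding gene (71.9%) was 65.9 to 79.3% with either replicate alone, 76.5% at an enrichment of at least 3, 76.2% at a −log10 q of at least 5, 89.7% and 85.1% in the 1 kb and 0.5 kb windows, and 61.9% without readthrough, Gm and Rik records. It stayed the largest class in each. The share with a near neighbour (12.1%) was 8.29 to 13.7% with either replicate alone, 7.83% at an enrichment of at least 3, and 6.67% and 17.0% with the neighbour's end within 2 kb and 10 kb. The share with no other gene near (15.3%) was 11.9 to 18.6% with either replicate alone, and 20.2% and 10.4% under the same distances. Members touching replicate 1 (32.6%) fell to 18.5% when 50% of the peak had to be covered.

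The CpG-poor share under a peak (26.9%) was 13.1 to 29.1% with either replicate alone, 37.3% in genes at least 50% covered, 36.4% on the strand of the enclosing gene and 17.2% on the other. The CpG-rich share (0.99%) became 0% in genes at least 50% covered, on the other strand and past the middle of the gene. These settings were added after seeing the data. The cause of each shift was not tested, and unknown depth limits all comparisons of the lists. No paired analysis was possible because there is only 1 group.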
